A study of Mus musculus with 2 samples.

Results

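The genes described here were the MYC transcription factors Myc and Mycn, their dimerization partner Max, and 4 genes for repressors that compete for MAX, namely Mxd1, Mxd4, Mxi1 and Mnt. Their members were all probe sets that the platform annotation assigned to 1 of these 7 symbols, which were 16 of the 45101 probe sets on the array. The 7 genes were chosen by a rule that uses their values on these same bulge and hairshaft arrays, with earlier results known, so every value below is a description. Expression was set side by side in 2 structures, namely the bulge, where the outer root sheath harbours stem cells, and the hairshaft. Each was cut by laser out of frozen, eosin-stained skin of 21-day-old mice of the strain C57Bl6, and 30 ng of total RNA from each was amplified and hybridised to 1 array. No genotype or treatment was stated, and how many animals were used was not given in the sources used here.

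MAX is the common partner of this network. MYC and MYCN bind DNA only as dimers with MAX, at the E-box, and raise transcription of genes for ribosome production, metabolism and cell division. The MXD proteins (the product of Mxi1 is also called MXD2) and MNT pair with the same MAX, bind the same sites and recruit the SIN3 and histone deacetylase corepressors. In skin, Myc is expressed in proliferating keratinocytes, forced Myc activity draws stem cells out of their niche, and Mxd1 is known from differentiating keratinocytes. In a parallel arm, MLX takes the place of MAX and pairs either with some MXD proteins or with the glucose-responsive factors MLXIP and MLXIPL.

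All values are log2 GCRMA values, and differences are bulge minus hairshaft on that scale, so a negative difference means a higher value in the hairshaft. With 1 array per structure there were no replicates, no test was possible and the error of a difference is unknown. A probe set was counted as measured when it exceeded, on at least 1 array, a floor of 2.68, the 95th percentile for 80 receptor probe sets (olfactory and vomeronasal genes). Of the 16 member probe sets, 15 were above this floor, and the exception was the second Mnt probe set (1418193_at) at 2.24 on both arrays. Over all 28721 probe sets above the floor the median difference was 0.00, the quartiles were -0.37 and 0.28, and the middle 90% lay between -1.22 and 1.70.

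The labels fitted the arrays only in part. Of 6 bulge stem cell markers, 5 exceeded the hairshaft value by 2-fold or more, led by the transcription factors Lhx2 (9.23 against 4.67) and Sox9 (8.72 against 4.96), but 5 of 9 hair shaft keratins did so too, and no hair shaft keratin was 2-fold higher in the hairshaft. Krt33a was 7.07 in the bulge against 2.44 in the hairshaft, and Krt31 was 6.11 and 2.61. The bulge array also had higher values for markers of other tissues. All 8 skeletal muscle markers (Acta1 15.15 against 3.11), all 5 adipocyte markers (Fabp4 13.87 against 4.19), all 5 sebocyte markers above the floor (Elovl3 10.73 against 3.19) and all 6 endothelial markers (Pecam1 7.83 against 2.56) were higher there by 2-fold or more. Skeletal muscle markers ranged from 13.98 to 15.15 in the bulge and from 2.30 to 3.11 in the hairshaft, so they were at or near the floor in the hairshaft. With hairshaft values given first, the hairshaft array was higher for 6 of 6 suprabasal epidermal markers (3 with the loess trend removed; Casp14 11.43 against 9.88, Ivl 12.11 against 10.71), 5 of 6 fibroblast markers (4 with the loess trend removed; Col1a1 14.36 against 11.87) and 6 of 6 immune markers (H2-Eb1 11.47 against 6.09). All 5 basal keratinocyte markers were under 2-fold apart (median -0.02), among them Col17a1 (13.21 against 12.69) and Itgb4 (8.60 against 8.97). In such material, fewer cells of a type and less RNA per cell cannot be told apart. The part of these tissues in any value below was not tested.

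The upstream sequences of the genes whose values the account turns on are shown first, for Mycn because it had the largest difference. Mxd4 and Mxd1 are shown as repressors with matches to the letters searched below. Mnt, also a repressor with a match, is not printed. RefSeq (GRCm38.p6) gave promoter entries for 6 of the 7 genes, all but Myc, with 8 start sites. Windows of 250 bases before each start were searched on both strands for the E-box CACGTG, for the CCAAT box and for 1 form of the E2F site, TTTGGCGC. None of the matches overlapped another. Capitals mark matches on either strand, and each sequence is written 5′ to 3′ along its gene and stops where the annotated gene begins.
Mycn, chr12:12941837-12942086, minus strand: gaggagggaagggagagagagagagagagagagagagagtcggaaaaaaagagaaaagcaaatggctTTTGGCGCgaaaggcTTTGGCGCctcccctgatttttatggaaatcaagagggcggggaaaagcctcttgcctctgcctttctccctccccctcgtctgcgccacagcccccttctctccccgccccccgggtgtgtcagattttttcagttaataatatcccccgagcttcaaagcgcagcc
Mxd1, chr6:86669235-86669409, minus strand: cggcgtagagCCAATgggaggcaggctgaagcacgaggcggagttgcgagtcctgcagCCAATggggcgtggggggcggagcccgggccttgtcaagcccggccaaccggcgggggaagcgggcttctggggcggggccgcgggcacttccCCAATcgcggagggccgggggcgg
Mxd4, chr5:34187711-34187960, minus strand: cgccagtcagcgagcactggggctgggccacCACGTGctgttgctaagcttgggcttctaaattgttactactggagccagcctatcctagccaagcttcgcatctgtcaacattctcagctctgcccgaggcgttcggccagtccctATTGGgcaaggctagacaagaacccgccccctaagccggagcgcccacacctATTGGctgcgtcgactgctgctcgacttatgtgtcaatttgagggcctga

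The Mycn window held the E2F letters at 2 places, beginning 183 and 168 bases before the start, and no E-box. Those letters occur in 0.417% of all 32851 promoter windows of this length. Mxd4 held an E-box beginning 219 bases before its start, and Mnt one beginning 123 bases before its start, so that 2 of the 8 member start sites contained CACGTG against 6.02% of all windows. Mxd1 had 4 CCAAT boxes, of which the 3 farthest from the start lie in the stretch printed, and Mxd4 had 2, both on the opposite strand; 33.8% of all windows hold at least 1. The windows of Max and of the 3 Mxi1 start sites contained none of these letters. A match is a description of the sequence and was not measured as a bound site.

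Like most probe sets on these arrays, most of the network differed little between the structures. Of the 15 member probe sets above the floor, 14 were under 2-fold apart. A single one was higher in the hairshaft by 2-fold or more and 0 were higher in the bulge by that much, beside 7.37% and 9.52% of all measured probe sets. By direction, 10 of the 15 had the higher value in the hairshaft, 2 in the bulge and 3 were equal on both arrays, where 48.0%, 40.7% and 11.4% of all probe sets fell into these classes. With the loess trend removed the split was 10 to 5 and with quantile normalization 12 to 3, since the equal probe sets then took small differences (48.9% and 61.5% of all probe sets were then higher in the hairshaft). The median of the 15 was -0.50, and it stayed at -0.50 over the 12 that did not belong to Mycn.

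**Figure D1:**
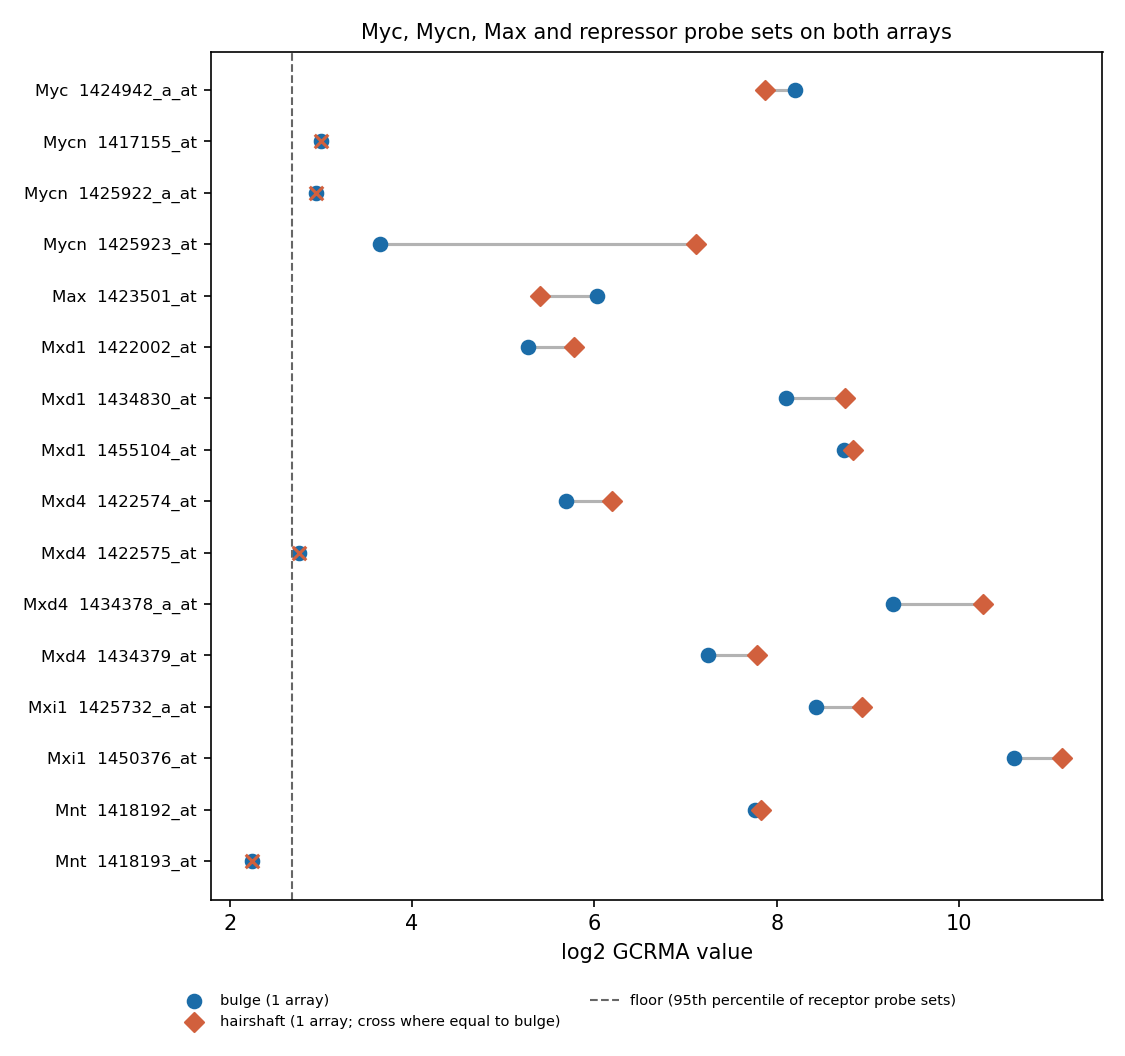
Log2 GCRMA value (horizontal axis) of each of the 16 probe sets of Myc, Mycn, Max, Mxd1, Mxd4, Mxi1 and Mnt on the bulge array (circles) and the hairshaft array (diamonds, or crosses where both values are equal), with 1 array each and the floor of 2.68 as a dashed line. The Mycn probe set 1425923_at spans 3.64 to 7.11, while the probe sets of Mxd1, Mxd4 and Mxi1 that differ all lie slightly higher in the hairshaft.

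Myc, the member that drives growth and division in most tissues, was clearly detected on both arrays. Its only probe set (1424942_a_at) read 8.20 in the bulge against 7.87 in the hairshaft, a difference of 0.33 or 1.26-fold. This lay just above the upper quartile of all probe sets, with 23.1% of them further towards the bulge.

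Mycn, a paralogue best known from embryonic progenitors, had 3 probe sets, of which only 1 differed between the arrays. Probe set 1425923_at read 3.64 in the bulge against 7.11 in the hairshaft, 11.1-fold higher in the hairshaft, and only 0.150% of all probe sets above the floor lay further in that direction. The other two, 1417155_at and 1425922_a_at, were close to the floor and read the same on both arrays, at 2.997 and 2.947. The gap between the highest and lowest difference within the gene was therefore 3.47, and 0.925% of the 5943 genes with at least 2 probe sets above the floor on both arrays had a larger one (median gap 0.50, 90th percentile 1.64). This gap counts the equal probe sets as measured, and readings so near the floor cannot show that the gene was level. Averaging its 3 probe sets gave Mycn a difference of -1.16, and adding 16 to the linear values before the logarithm gave -2.44. In the bulge its brightest probe set was little above the floor, so the fold there depends on how low values are treated.

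Max, the shared partner of the MYC, MXD and MNT proteins, had the other small difference towards the bulge. Its probe set 1423501_at read 6.03 in the bulge against 5.40 in the hairshaft, a difference of 0.63 or 1.55-fold. Of all probe sets above the floor, 15.1% lay further towards the bulge. Max and Myc each rested on 1 probe set, so neither had a second reading within the array.

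The MXD repressors shared a direction more than a size. Across Mxd1, Mxd4 and Mxi1, 8 of 9 probe sets were higher in the hairshaft, the ninth was equal on both arrays and none was higher in the bulge, beside 48.0% of all probe sets higher in the hairshaft. These 9 are repeat readings of 3 genes on the same arrays, so they do not count as 9 separate cases. Their differences ran from -0.99 to 0.00 with a median of -0.51, and all 9 were under 2-fold. The 8 stayed higher in the hairshaft with the loess trend removed and with quantile normalization, where 48.9% and 61.5% of all probe sets were higher there. The ninth turned slightly towards the bulge under both.

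Mxi1, an antagonist of MYC that is expressed in many differentiated tissues, had the closest repeat of the members. Its probe set 1450376_at read 10.60 in the bulge against 11.13 in the hairshaft, and 1425732_a_at read 8.43 and 8.94. The differences of -0.53 and -0.50 were 0.028 apart, a smaller gap than in 96.0% of the genes with repeated probe sets. Of those 5943 genes, 2523 had at least 3 such probe sets, and a gap cannot narrow as probe sets are added. Of all probe sets, 18.2% and 19.3% lay further towards the hairshaft.

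Mxd4, which is expressed in differentiating and resting cells, had the largest difference of the group. Probe set 1434378_a_at read 9.27 in the bulge against 10.26 in the hairshaft, a difference of -0.99 or 1.98-fold, with 7.59% of all probe sets further towards the hairshaft. Probe set 1434379_at read 7.25 and 7.78, and 1422574_at read 5.69 and 6.19, differences of -0.54 and -0.50. The fourth, 1422575_at, was near the floor at 2.76 on both arrays. Its 3 brighter probe sets thus shared a direction, with sizes from 1.41-fold to 1.98-fold. The gap of 0.99 over all 4 was wider than in 75.7% of the genes with repeated probe sets. Its upper end was the equal probe set near the floor, a reading that cannot show that the gene was level.

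Mxd1, the repressor known from differentiating keratinocytes and blood cells, varied more in size than in direction. Probe set 1434830_at read 8.10 in the bulge against 8.75 in the hairshaft, a difference of -0.65. Probe set 1422002_at read 5.27 and 5.78, a difference of -0.51. The brightest, 1455104_at, read 8.73 and 8.84, a difference of only -0.10. Taking the brightest probe set therefore gave 1.07-fold for the gene, and the mean of its 3 probe sets a difference of -0.42. Its gap of 0.55 was wider than in 53.4% of the genes with repeated probe sets. The array with the higher values of these repressors was also the higher one for fibroblast (median difference -1.004, 3 of 6 past 2-fold), immune (-0.90, 2 of 6) and suprabasal markers (-0.45, 2 of 6). Of all genes, 4.91% passed 2-fold towards the hairshaft. Of the suprabasal markers, Krt1, Krt10 and Lor read -0.11, -0.03 and -0.04 and turned towards the bulge with the loess trend removed (0.064, 0.18 and 0.16).

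Mnt, the repressor that is present in dividing and resting cells alike, was nearly level. Its measured probe set 1418192_at read 7.76 in the bulge against 7.83 in the hairshaft, a difference of -0.07 or 1.05-fold. Its value lay between the quartiles of all probe sets. Mnt was thus the member with the smallest difference among those read from their brightest probe set.

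The only repeat reading on these arrays was that between probe sets of 1 gene. Over the 5943 genes, the differences of probe sets of 1 gene had a pooled SD of 0.60, and all probe sets had 1 direction for 49.5% of the genes. All were higher in the hairshaft, as for Mxi1, in 28.2% of them, and, as for Mxd1, in 22.4% of the 2523 genes with at least 3 such probe sets. Apart from Mycn and Mxd4, the gene-level differences of -0.53 to 0.63 were at or below about this SD in size. Probe sets share the array and the RNA, so this spread holds nothing of the variation between animals or dissections.

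**Figure D2:**
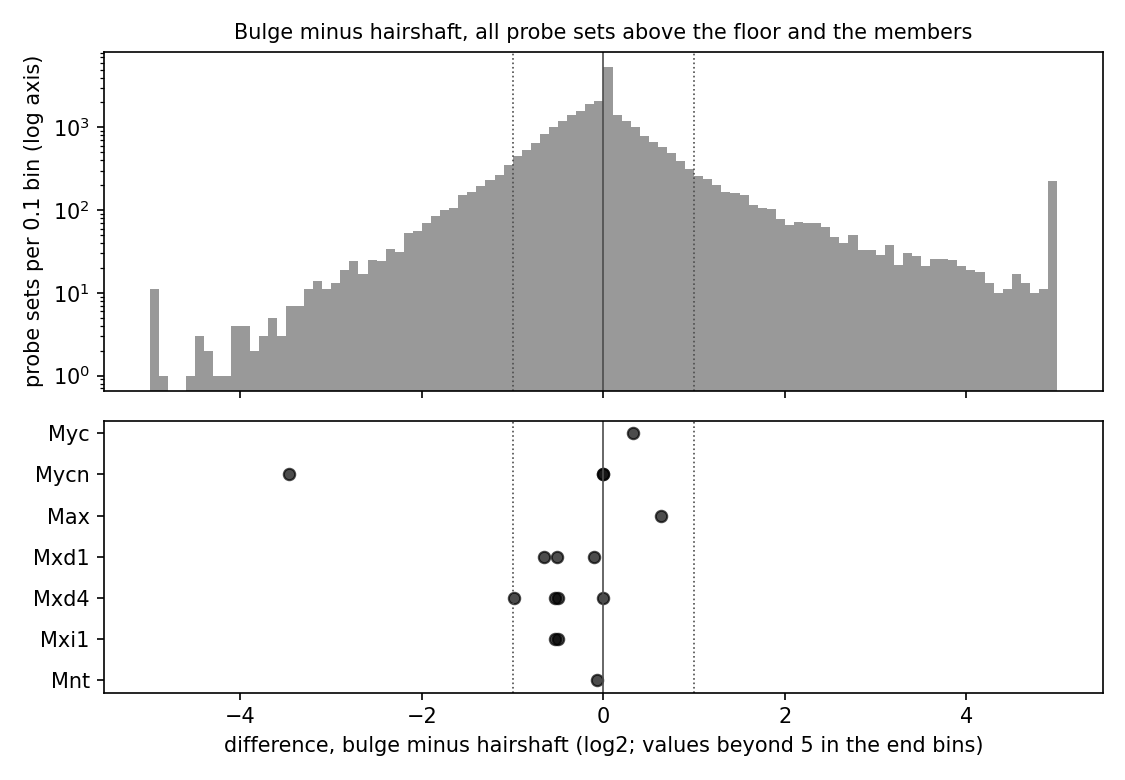
Upper panel, number of probe sets (log axis) per 0.1 of bulge minus hairshaft difference (log2) for the 28721 probe sets above the floor; lower panel, the same difference for each of the 15 member probe sets above the floor, 1 point each. Dotted lines mark 2-fold; only the Mycn probe set at -3.47 lies outside them, and the Mxd1, Mxd4 and Mxi1 points lie between -0.99 and 0.00.

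The other network genes were Mycl, Bmyc, Mxd3, Mga, Mlx, Mlxip and Mlxipl, with 16 probe sets of which 13 were above the floor. Of these 13, 9 were higher in the hairshaft, 3 in the bulge and 1 was equal (all probe sets: 48.0%, 40.7% and 11.4%). With quantile normalization the split was 11 and 2, where 61.5% and 38.4% of all probe sets fell. By size, 3 differed by 2-fold or more, 2 towards the hairshaft and 1 towards the bulge, beside 7.37% and 9.52% of all. By the brightest probe set of each gene, 3 were higher on each array and 1 was equal. Mycl, the third MYC paralogue, was higher in the hairshaft in each of its 3 probe sets by almost the same amount. They read 7.49 and 8.45, 5.23 and 6.25, and 4.98 and 5.94 in the bulge and hairshaft, differences of -0.96, -1.02 and -0.96. Its gap of 0.062 between probe sets was smaller than in 92.4% of the genes with repeated probe sets. Bmyc, a short MYC-related gene of rodents, read 4.90 and 4.78, and its difference of 0.12 became -0.07 with quantile normalization.

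Mxd3, the MXD gene known from dividing cells, read 5.97 in the bulge against 6.80 in the hairshaft with its brightest probe set, a difference of -0.82. Its dimmer probe sets had differences of -0.17 and -0.21, in the same direction. The second of these was just below the floor in the bulge and at 2.89 in the hairshaft, so its difference is a lower bound. Mga, a large factor that pairs with MAX and also binds T-box sites, gave conflicting readings. Probe set 1431232_a_at read 5.80 in the bulge against 8.53 in the hairshaft (6.61-fold), while 1434746_at read 8.53 on both arrays, and the other three were not above the floor. For Mga, as for Mycn, the whole difference rested on a single probe set, and its gap of 2.73 was exceeded by 2.49% of the genes with repeated probe sets.

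The MLX arm contained the largest difference towards the bulge. Mlxipl, also called ChREBP and a regulator of fat synthesis from sugar, read 6.53 in the bulge against 2.42 in the hairshaft, a difference of at least 14.4-fold. On the log2 scale this bound was 3.85, and it became 2.32 with the floor at the 99th percentile, 3.05 with the floor at the array median and 2.27 with the offset of 16. Mlxip, its relative in muscle and other tissues, read 8.33 and 7.67, 1.58-fold higher in the bulge. Their partner Mlx differed the other way, at 6.95 and 7.53 in 1 probe set and 6.38 and 7.23 in the other. The bulge array was also the one with the adipocyte markers (median 11.96 against 2.62) and sebocyte markers (median 10.73 against 3.45), cells in which fat synthesis is prominent.

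**Figure D3:**
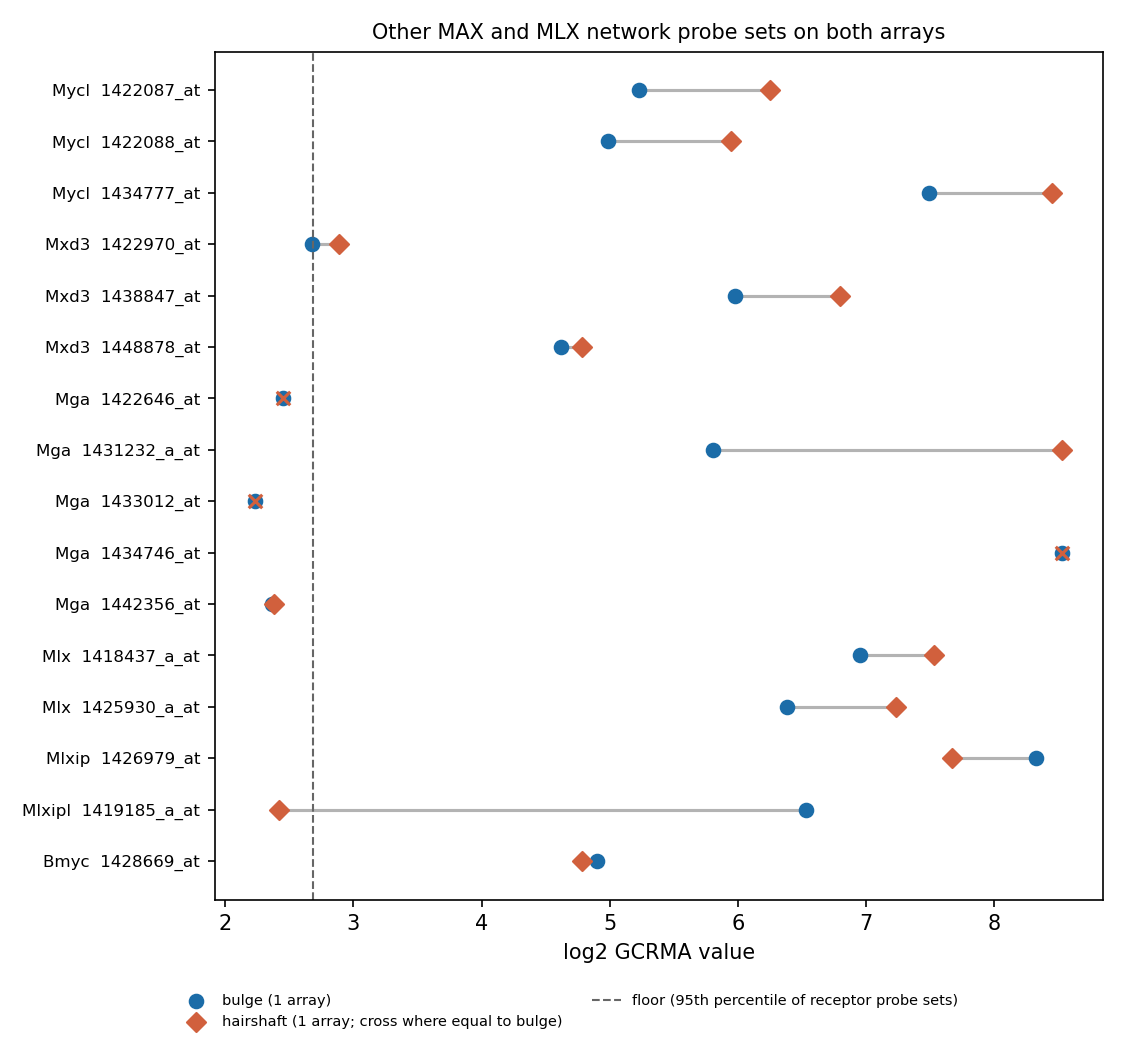
Log2 GCRMA value (horizontal axis) of each of the 16 probe sets of Mycl, Mxd3, Mga, Mlx, Mlxip, Mlxipl and Bmyc on the bulge array (circles) and the hairshaft array (diamonds, or crosses where equal), 1 array each, with the floor as a dashed line. The 3 Mycl probe sets lie higher in the hairshaft by similar distances, and Mlxipl lies at 6.53 in the bulge and at 2.42, below the floor, in the hairshaft.

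Genes that the network acts on or depends on were compared by their brightest probe set. Among the 13329 genes that passed the floor, 11.4% exceeded 2-fold towards the bulge and 4.91% towards the hairshaft, and the median difference was 0.00. The corepressors, coactivators and MIZ1 were the most even list. All 16 measured cofactors were under 2-fold apart, 8 higher on each array, with a median of 0.01 and a range from -0.34 to 0.72. Among regulators of MYC protein stability, 12 of 13 were under 2-fold apart and the median was 0.02. The bulge had the higher value for 8 and the hairshaft for 5, and quantile normalization turned this split to 5 and 8. The exception was Fbxw7, the ubiquitin ligase subunit that marks MYC for breakdown, which read 8.23 in the bulge against 9.78 in the hairshaft (2.92-fold). Its other probe set gave a smaller difference of -0.78.

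Genes of ribosome production that MYC is known to activate lay slightly towards the hairshaft. Of 20 such genes, 16 had the higher value in the hairshaft (46.6% of all genes did) and 4 in the bulge (44.9%), but the median was only -0.19 and 19 were under 2-fold apart. The exception was Nop58, a core protein of the nucleolar particles that modify ribosomal RNA, at 6.21 in the bulge against 8.01 in the hairshaft (3.48-fold). Of 21 activated genes of metabolism, translation and the cell cycle above the floor, 10 were higher on each array and 1 was equal, with a median of 0.00. The members that passed 2-fold, both towards the bulge, were the lactate dehydrogenase gene Ldha (12.80 against 11.64) and the lactate transporter gene Slc16a1 (10.38 against 9.24). Slc16a1 had 0.57 with its probe sets averaged, which is under 2-fold. That mean takes in a probe set not above the floor, at 2.38 on both arrays. Ldha and Slc16a1 are also prominent in skeletal muscle, whose markers were higher on the bulge array. The part of muscle in their values was not tested. Tert was not above the floor on either array.

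Genes known to be repressed by MYC were spread in both directions, with 2 of 11 past 2-fold on each side and a median of 0.04. Of all genes, 11.4% passed 2-fold towards the bulge and 4.91% towards the hairshaft. Ndrg2, a stress and differentiation gene also abundant in muscle, was 11.22 in the bulge against 8.33 in the hairshaft (7.41-fold). The cell cycle inhibitor gene Cdkn1c was 4.61 in the bulge against 2.99 in the hairshaft (3.06-fold). Its log2 difference of 1.61 shrank to 0.40 under the higher floor and to 0.75 under the offset of 16. In the other direction, the inhibitor gene Cdkn2b read 7.88 and 9.39 (2.85-fold), and the integrin gene Itga6 read 11.21 and 12.31 (2.15-fold). For Itga6 the difference was -0.68 when its probe sets were averaged and -0.98 after loess, both under 2-fold.

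Targets of the Mondo proteins with MLX were the only one of the 8 network and target lists with a median past 2-fold, at 1.05, but its median was 0.94 with the mean of probe sets, which is under 2-fold. Of its 9 genes, 5 passed 2-fold towards the bulge (11.4% of all genes did) and the other 4 were counted as under 2-fold apart. The desaturase gene Scd1 was 14.54 in the bulge against 11.72 in the hairshaft, the fatty acid synthase gene Fasn 12.32 and 9.67, and the elongase gene Elovl6 13.26 and 10.78. The count also included Acaca (2.66-fold), another enzyme gene of fat synthesis, and Txnip (2.07-fold), both named after their values were seen. With the mean of probe sets Acaca had 0.74, and 4 of the 9 genes passed 2-fold. Arrdc4, the relative of Txnip, was 7.76 in the bulge against 8.41 in the hairshaft. By direction, 6 of the 9 genes were higher in the bulge and 3 in the hairshaft (44.9% and 46.6% of all genes). The 3 were Arrdc4, Klf10 (8.25 in the bulge against 9.16) and Pklr (2.45 against 3.15). Pklr was below the floor in the bulge, so its difference of -0.47 is a lower bound. Fat synthesis genes are also marker genes of adipocytes and sebocytes, and Scd1 stands in the sebocyte list as well.

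**Figure D4:**
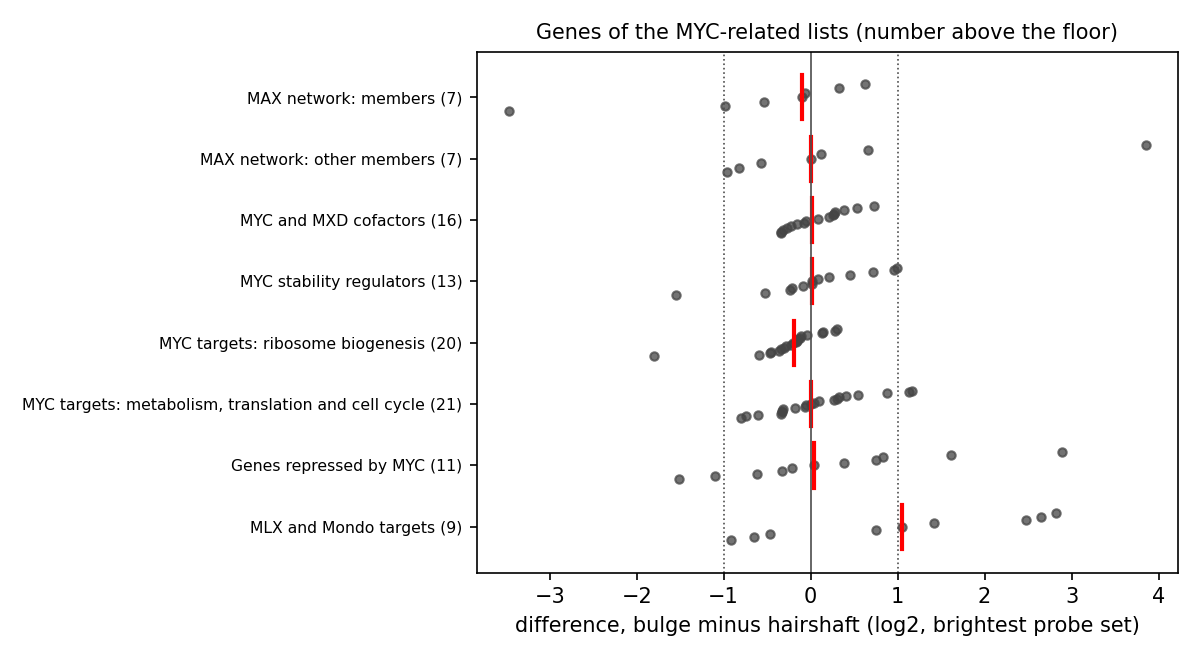
Bulge minus hairshaft difference (log2, brightest probe set) of each gene above the floor in the 8 network and target lists, 1 point per gene, with the list median as a red bar and 2-fold as dotted lines. The medians lie between -0.19 and 0.04 for the lists other than the targets of the Mondo proteins, whose median is 1.05.

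Proliferation markers were close on both arrays beside these values. Mki67 read 9.90 in the bulge against 9.88 in the hairshaft. All 9 measured markers were higher in the bulge, beside 44.9% of all genes, with a median of 0.20, and 8 of them were under 2-fold apart. With quantile normalization 6 were higher in the bulge, and Mki67, Bub1 and Plk1 turned slightly towards the hairshaft (-0.0052, -0.035 and -0.15). The largest differences were in the mitotic kinase gene Aurkb (6.47 against 5.11; log2 1.35, and 0.84 when its probe sets were averaged) and the replication gene Mcm2 (7.89 against 6.91).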

How the data were processed

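RNA from the bulge and the hairshaft was measured on 1 expression array each. The authors deposited log2 values per probe set, made with GCRMA per the submitters' processing notes, with no version or settings stated there. That they are log2 follows from their range (2.23 to 15.36), and the sorted columns differed by at most 0.19, so no scaling was added. All columns were used (0 unused). The platform annotation gave 1 symbol for 34958 probe sets, several for 932 and none for 9211; symbols were updated through Entrez identifiers for 34754. For 18194 genes the probe set with the highest mean was taken. A value at or below the floor (95th percentile of the receptor probe sets) was replaced by it, and the fold is then "at least". Arrays carry no read depth, and precision is limited by there being 1 per structure.

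No test was run, since 0 residual degrees of freedom remained; differences were counted at 2-fold. The members and lists were chosen with earlier results of these data known. Named genes were all network genes and the 2 largest differences per marker list. From each MYC-related list, up to 3 per direction at least 2-fold apart were named. Acaca, Txnip, Arrdc4, Klf10, Pklr, Tert, Mki67, Bub1, Plk1, Krt1, Krt10 and Lor were added after their values were seen. Counting was tested on simulated data. Python 3.11.15, pandas 2.3.3, numpy 2.4.6 and statsmodels 0.14.6 were used, with 9 alternatives given in the closing section.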

Additional observations from a re-analysis of the deposited data

How the results depend on the processing

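The settings varied were the floor (99th percentile of receptors, array median, or none), the probe sets (plain ones only, or their mean for genes), an offset of 16, a loess correction (span 0.3), centring on the median difference, and quantile normalization. A value counted as moved when it changed by 1.5-fold or more. Among the member differences, member counts and list medians, 148 of 150 alternative values did not move. The 2 that moved were both for Mycn, to -2.44 with the offset and -1.16 with the mean of probe sets. The cause lies in its dim bulge value and in its probe sets that were equal on both arrays. The 148 include settings that could not act. Centring removed a median of 0.00, and the floors changed no member difference but that of Mycn. The 1.5-fold limit also exceeds the differences of Myc (1.26-fold), Mxd1 (1.07), Mxi1 (1.45) and Mnt (1.05). Mxd4 thus counted as unmoved at -0.51 with the mean of probe sets, against -0.99. So did the median of the stability regulators, from 0.02 to -0.08 with quantile normalization. The count of member probe sets at least 2-fold apart stayed at 1. The median of the Mondo target list was between 0.94 and 1.32, on both sides of 2-fold. Myc has no plain probe set and got no value under that setting. Among single genes, marker lists and list counts, 136 values moved and 1766 did not. No paired analysis was possible because each group has 1 array, and no replicate could be left out.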

Other observations

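The deposited table held 17293 probe sets (38.3%) with the same value on both arrays to every digit given, most of them near the lowest value of the table. Of the probe sets above the floor, 3267 (11.4%) were equal in this way, and 31 of them had a value over 8. Among the network genes, the Mga probe set at 8.53 was 1 of these 31. The second Mga probe set above the floor had the same hairshaft value to 2 decimals and 5.80 in the bulge.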
